A study of Mus musculus with 12 samples.

Results

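The islet transcriptome was followed along the dose of the Wfs1 gene, from 2 intact copies in WT mice through 1 in Wfs1HZ mice to 0 in Wfs1KO mice. All 12 samples of the series entered the trend, 4 mice of each genotype with 1 RNA-seq library each, and 13357 of the 24078 transcripts in the table had the mean of at least 1 RPKM that the test required. RPKM are reads per kilobase of transcript, scaled to the size of the library. For each transcript log2(RPKM + 0.1) was regressed on the number of intact copies, and the slope is given as the log2 change for each copy lost, so a positive slope means a higher level in mice with fewer copies.

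The mice were male F2 hybrids of the 129S6/SvEvTac and C57BL/6 backgrounds, 5 to 6 months old. The mutant allele, Wfs1tm1Koks, has a LacZ cassette in place of most of exon 8, in every tissue of the animal, and still produces a fusion of the N-terminal part of the protein with LacZ. WT mice carried no such allele, Wfs1HZ mice a single one and Wfs1KO mice only such alleles. Islets of all genotypes were handpicked after collagenase digestion and kept overnight in medium with high glucose before RNA was isolated. A handpicked islet preparation holds alpha, delta and other cells beside beta cells, and some exocrine tissue.

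WFS1, or wolframin, is a glycoprotein of the endoplasmic reticulum (ER) membrane that is abundant in beta cells and takes part in calcium handling and in restraining the response to unfolded proteins. Loss of both copies causes Wolfram syndrome, with diabetes and optic atrophy. A heterozygote has a single working copy, and where a transcript follows the gene dose its level in heterozygotes lies between those of the other genotypes. Because the 3 groups are of equal size and equally spaced, the slope is set by the WT and Wfs1KO means alone. What the heterozygotes add is a second quantity, the curvature, which is the Wfs1HZ mean less the midpoint of WT and Wfs1KO.

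The most abundant transcript of every library was Gcg or Ins2, the hormone genes of alpha and beta cells, or Ctrb1, a digestive enzyme of acinar cells. Some libraries stood apart from the others of their genotype. Wfs1HZ replicate 2 had a summed stromal marker level of 974 RPKM against 49.8 to 232 RPKM in the other Wfs1HZ mice. Wfs1HZ replicate 4 had the lowest median level of all libraries and a summed acinar marker level of 356533 RPKM. Wfs1KO replicate 4 had the lowest summed level of chemokine and NF-kB target genes, 404 RPKM against 4002 to 4544 RPKM in the other Wfs1KO mice. The depth that the steps between low RPKM values imply was 2190000 to 9556000 reads per library. It is an estimate of the reads behind the RPKM and is far below the number of sequenced reads that the study gives. Wfs1HZ replicate 2, the lowest by this estimate, had the most transcripts above 0 (20954). By the estimate, 3 reads on a transcript of 2 kb are worth 0.157 RPKM in the deepest library and 0.685 RPKM in the shallowest.

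Wfs1 itself, on chromosome 5 from 36966104 to 36989205 on the minus strand (GRCm38, the same assembly as mm10), fell with each copy lost. Its level was 33.94, 27.37, 24.85 and 28.43 RPKM in the WT mice, 15.03, 4.69, 16.43 and 8.16 RPKM in the Wfs1HZ mice and 5.08, 6.61, 3.46 and 2.45 RPKM in the Wfs1KO mice. No WT mouse overlapped a mouse of another genotype, and Wfs1HZ replicate 2 lay below the 2 highest Wfs1KO mice. The Wfs1HZ mean was 38.7% and the Wfs1KO mean 15.4% of the WT mean. The slope was -1.38 ± 0.18 (log2 per copy lost, SE), the steps were -1.52 ± 0.38 for the first copy and -1.24 ± 0.38 for the second, and the curvature was -0.14 ± 0.33. By limma the slope had an adjusted p of 0.0098, and an exact two-sided permutation test over the 34650 arrangements of the mice gave p = 0.000173. The call at an FDR of 0.05 was lost without any 1 of WT replicate 1, 2 or 4 or Wfs1KO replicate 3 (adjusted p = 0.0515 to 0.0771 by limma), with a slope of -1.33 to -1.38 in these 4 fits, and it was lost as well with median-of-ratios scaling or quantile normalization, with a slope of -1.4 in both. Exon 8, at 36966104 to 36968678, makes up 2575 of the 3787 nt of the transcript, and the table does not say which exons the remaining reads of Wfs1KO mice came from.

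Wfs1 was the single transcript with a slope past an FDR of 0.05 (0.00749% of those tested), and Glipr2 was the only addition at an FDR of 0.2 (0.015%). The mutant allele lacks most of exon 8 of Wfs1, so a fall in Wfs1 reads was built into the design. Apart from Wfs1, no transcript passed an FDR of 0.05. At an unadjusted limma p under 0.05 there were 464 transcripts, fewer than the 668 that evenly spread p-values would give. Of these, 295 were higher with fewer copies (2.21% of those tested) and 169 were lower (1.27%). The 63.6% share of higher slopes became 47.3% with median-of-ratios scaling, 44.1% with quantile normalization and 21.1% with the stromal marker level as a covariate. With each mouse left out it ran from 49%, without Wfs1KO replicate 1, to 77.9%, without Wfs1KO replicate 3. The balance between higher and lower transcripts thus depends on the scaling, the covariate and single mice. For the curvature 0 transcripts passed an FDR of 0.05 or 0.2 by limma, and 418 had an unadjusted p under 0.05 (3.13%). In 20.6% of the 418 the heterozygotes lay above the midpoint, and without Wfs1HZ replicate 4 this share was 72%. Without Wfs1HZ replicates 2 and 4 together, 868 slopes had an unadjusted p under 0.05, 1 passed an FDR of 0.05 and 20 passed an FDR of 0.2. Without Wfs1KO replicate 4, 741 had an unadjusted p under 0.05, 8 passed an FDR of 0.05 and 26 passed an FDR of 0.2.

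**Figure D1:**
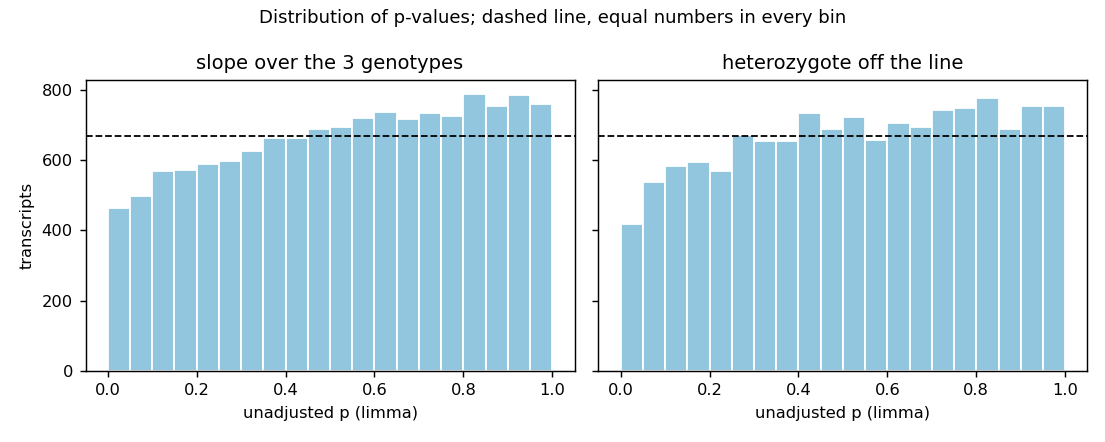
Number of transcripts (vertical axis) in 20 equal bins of unadjusted limma p (horizontal axis), for the slope over the 3 genotypes on the left and for the curvature on the right, with the dashed line at equal numbers in every bin. The lowest bin holds 464 slopes and 418 curvatures, below the line in both panels.

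A fully graded transcript would have every Wfs1HZ mouse between every WT and every Wfs1KO mouse. That held for 0 of the 13357 transcripts (0%), and for 17 of the 13357 when Wfs1HZ replicates 2 and 4 were left out. Complete order arises by chance more easily with fewer mice, so the 17 cannot be set against the 0. Of the 48 pairs of mice with different genotypes, the largest number in order of gene dose was 47, for Rara. Wfs1, Glipr2 and Kdelr3 each had 46 pairs in order. WT and Wfs1KO mice alone did not overlap in 210 transcripts (1.57%) that were higher in all 4 Wfs1KO mice and in 163 (1.22%) that were lower in all 4.

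**Figure D2:**
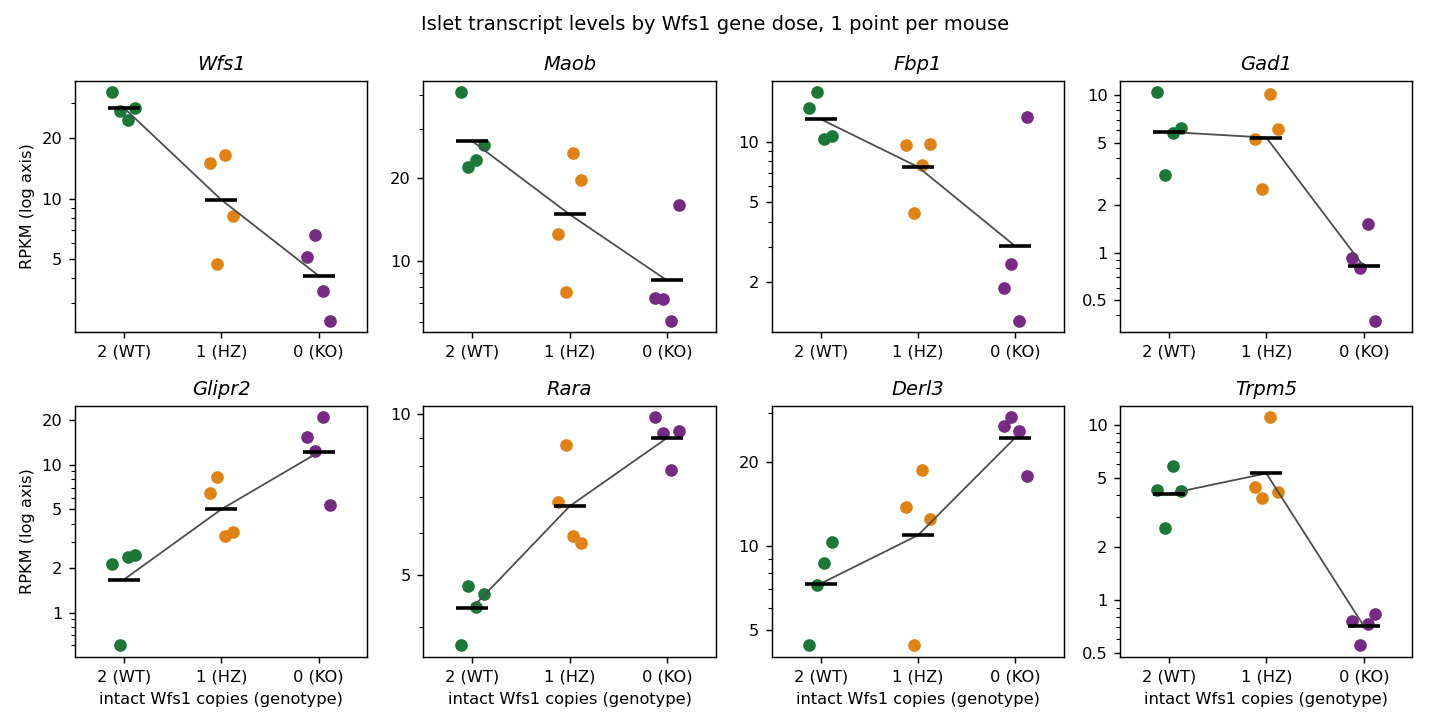
RPKM of 8 transcripts (log axis, 1 point per mouse) against the number of intact Wfs1 copies, with horizontal bars at the mean of each genotype on the log2 scale joined by a line. Wfs1, Maob, Fbp1, Glipr2 and Rara step at both lost copies, whereas the Gad1 and Trpm5 lines bend at the heterozygote, with position values of 0.04 and -0.16.

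Glipr2, a Golgi-associated protein of the pathogenesis-related family, had the lowest p among the transcripts that were higher with fewer copies. It was at 2.13, 0.6, 2.36 and 2.46 RPKM in WT mice, 6.4, 8.29, 3.28 and 3.53 RPKM in Wfs1HZ mice and 15.44, 12.4, 20.99 and 5.38 RPKM in Wfs1KO mice. Every WT mouse was below every other mouse, and only Wfs1KO replicate 4 reached into the Wfs1HZ range. Its steps were 1.52 ± 0.48 and 1.27 ± 0.48 and its slope was 1.39 ± 0.23 (adjusted p = 0.0955 by limma; exact permutation p = 0.000462). With each mouse left out in turn the adjusted p ran from 0.0108, without Wfs1KO replicate 4, to 0.759, without Wfs1KO replicate 3.

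Rara, the retinoic acid receptor alpha, had the most complete order. Its level was 3.7, 4.78, 4.37 and 4.62 RPKM in WT mice, 6.85, 8.76, 5.92 and 5.75 RPKM in Wfs1HZ mice and 9.86, 9.19, 7.85 and 9.28 RPKM in Wfs1KO mice. Wfs1HZ replicate 2, above 1 Wfs1KO mouse, was the single mouse out of order. The slope was 0.52 ± 0.12, with an unadjusted exact permutation p of 0.000115 and an adjusted p of 0.56 by limma, so it did not pass over all transcripts.

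Prss23, a secreted serine protease, was at 4.78 ± 0.843 RPKM in WT, 8.55 ± 3.17 RPKM in Wfs1HZ and 14.3 ± 5.04 RPKM in Wfs1KO mice (SD, n = 4 each), with steps of 0.77 ± 0.35 and 0.72 ± 0.35. Kdm6b, a histone H3 lysine demethylase, had steps of 0.55 ± 0.29 and 0.6 ± 0.29 and a mean of 13.2, 20.0 and 30.4 RPKM in the 3 genotypes. Gadd45b, a stress-induced growth arrest gene, had 21.83 to 32.37 RPKM in WT, 26.11 to 65.42 RPKM in Wfs1HZ and 42.12 to 72.27 RPKM in Wfs1KO mice. All 3 had a slope p under 0.05 and an adjusted p of 0.543 to 0.682 by limma. In these genes the heterozygote lay from 0.48 to 0.67 of the way from WT to Wfs1KO on the log2 scale. A heterozygote mean between the others was a condition of the rule that named them. Lmo4, a LIM domain transcription regulator, was nearer the Wfs1KO end at 0.81, with a first step of 1.18 ± 0.33 and a second of 0.27 ± 0.33. Csf3, the granulocyte growth factor, was near the WT end at 0.14, with means of 7.48, 10.2 and 32.7 RPKM.

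Derl3 and Fkbp11 are genes of the ER protein quality machinery. Derl3 encodes a derlin, part of the channel that returns misfolded proteins to the cytosol for degradation. It was at 4.42, 7.25, 8.69 and 10.37 RPKM in WT mice, 13.78, 4.41, 18.74 and 12.47 RPKM in Wfs1HZ mice and 26.81, 28.96, 25.8 and 17.88 RPKM in Wfs1KO mice. All Wfs1KO mice were above all WT mice, and Wfs1HZ replicate 2 was the lowest mouse of the series. The slope of Derl3 was 0.86 ± 0.19 (adjusted p = 0.543 by limma; exact permutation p = 0.00369). Fkbp11, a prolyl isomerase of the secretory pathway, had its difference in the second step, 1.36 ± 0.31 against 0.13 ± 0.31 in the first, with 12.22, 11.07, 12.57 and 14.21 RPKM in WT mice, 20.99, 8.03, 14.2 and 14.32 RPKM in Wfs1HZ mice and 53.91, 43.02, 26.6 and 24.31 RPKM in Wfs1KO mice. Kdelr3, a receptor that returns ER proteins from the Golgi, was chosen after its values were seen. It was at 8.09, 6.21, 7.48 and 8.02 RPKM in WT mice, 10.08, 9.29, 7.55 and 10.36 RPKM in Wfs1HZ mice and 11.58, 11.77, 10.64 and 14.09 RPKM in Wfs1KO mice, so only Wfs1HZ replicate 3 was out of order, and its slope was 0.34 ± 0.11 (adjusted p = 1 by limma).

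Many genes of this machinery carry the ER stress response element in their promoters, which the factors ATF6 and XBP1 bind together with NF-Y. Promoters from 250 bases before to 50 bases after the RefSeq start (GRCm38.p6) were searched on both strands for CCAAT, any 9 bases and then CCACG. The element was found in 39 of 32851 promoters (0.119%), and 24 of the 32 genes of the ER folding and ER-associated degradation lists matched a promoter. Of those 24 genes, 9 had the element. The stretches below show it in capitals for Derl3 and Pdia6, the members with the element and a slope p under 0.05, and for Hspa5, Creld2 and Syvn1, each with 15 further bases on either side and printed along the gene's strand. In Derl3 and Creld2 the element reads on the opposite strand. All 5 genes are on the plus strand, at chr10:75893227-75893275 for Derl3, chr12:17266476-17266524 for Pdia6, chr2:34772010-34772058 for Hspa5, chr15:88819505-88819553 for Creld2 and chr19:6046517-6046565 for Syvn1.
Derl3: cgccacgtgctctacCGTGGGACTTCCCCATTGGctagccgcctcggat
Pdia6: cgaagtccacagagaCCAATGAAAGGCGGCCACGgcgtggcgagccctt
Hspa5: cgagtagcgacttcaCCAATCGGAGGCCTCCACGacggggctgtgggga
Creld2: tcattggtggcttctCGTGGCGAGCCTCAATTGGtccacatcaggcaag
Syvn1: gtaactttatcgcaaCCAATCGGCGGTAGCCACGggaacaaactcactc

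Among the 9 genes with the element the slope was positive in 9, with a median of 0.21, and among the 15 without it in 14, with a median of 0.15. A slope p under 0.05 (limma) was seen in 2 of the 9 and in 1 of the 15, beside 2.21% of all transcripts in that direction. Hspa5, the ER chaperone BiP, was at 572.42, 626.53, 1181.38 and 690.31 RPKM in WT mice, 1247.74, 984.32, 979.17 and 523.48 RPKM in Wfs1HZ mice and 1181.64, 1661.98, 1050.96 and 1024.47 RPKM in Wfs1KO mice, with overlap among all genotypes. Its slope was 0.36 ± 0.18 (adjusted p = 1 by limma; unadjusted exact permutation p = 0.0443). Pdia6, a protein disulfide isomerase, had a slope of 0.41 ± 0.13, with 63.69 to 89.62 RPKM in WT, 60.91 to 113.96 RPKM in Wfs1HZ and 111.54 to 182.52 RPKM in Wfs1KO mice. Here too the second step (0.72 ± 0.26) was larger than the first (0.1 ± 0.26), although the curvature, -0.31 ± 0.22, had an unadjusted p over 0.05 by limma. Creld2 and Syvn1, an ER disulfide isomerase-binding protein and the ubiquitin ligase of ER-associated degradation, had slopes of 0.28 ± 0.17 and 0.21 ± 0.13.

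Over the whole ER folding list of 17 genes, 1 slope was higher with fewer copies at an unadjusted p under 0.05 (Pdia6) and 1 was lower (Ero1lb, the beta cell oxidoreductin, -0.43 ± 0.18). Over all transcripts the shares were 2.21% higher and 1.27% lower. The slope was positive in 15 of the 17 genes with a median of 0.19, beside a median of 0.02 over all transcripts tested. Without Wfs1HZ replicates 2 and 4 the count was 6 higher and 1 lower, and with sample weights 12 and 0. Over all transcripts the number higher was 568 and 1129 in the same fits, against 295 with every mouse and no weights. The median step was -0.24 from WT to Wfs1HZ and 0.49 from Wfs1HZ to Wfs1KO, beside -0.06 and 0.09 over all transcripts. In 6 of the 17 the Wfs1HZ mean lay between the others. The summed level of the list was 2419 to 3932 RPKM in WT, 2009 to 3836 RPKM in Wfs1HZ and 3345 to 5099 RPKM in Wfs1KO mice, which overlap. ER-associated degradation was alike, with 14 of 15 slopes positive and a median of 0.13. Beside the same 2.21%, 2 of its genes had p under 0.05 by limma, Derl3 and Edem2, a mannosidase-like lectin whose slope was 0.38 ± 0.18. The number of such genes was 4 without Wfs1HZ replicates 2 and 4, 5 with the stromal covariate and 1 to 6 with each mouse left out, the highest without WT replicate 1. Over all transcripts 335 were higher with the stromal covariate and 371 without WT replicate 1. Among the 7 ER stress markers of the study, which include Atf6, Ern1, Eif2ak3 and Ddit3, 0 passed that p, with a median slope of 0.05. In the ATF4 target list 1 of 16 passed, beside the same 2.21% of all transcripts. It was Ddit4, an inhibitor of mTOR signalling, whose mean was 18.8 RPKM in WT, 30.3 in Wfs1HZ and 31.0 in Wfs1KO mice.

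Of the transcripts that were lower with fewer copies, Maob and Fbp1 had a lower mean at each step, which the rule that named them required. Maob, an amine-degrading oxidase of the mitochondrial outer membrane, was at 40.7, 21.75, 23.25 and 26.22 RPKM in WT mice, 12.47, 7.72, 24.61 and 19.67 RPKM in Wfs1HZ mice and 7.33, 7.26, 6.05 and 15.94 RPKM in Wfs1KO mice. WT and Wfs1KO mice did not overlap, while the Wfs1HZ mice spanned the gap between them. The steps were -0.88 ± 0.37 and -0.79 ± 0.37 and the slope was -0.83 ± 0.18 (adjusted p = 0.543 by limma; exact permutation p = 0.00358). Maoa, its paralog on the same chromosome, had a slope of -0.33 ± 0.16, with 5 to 11.06 RPKM in WT and 4.62 to 5.22 RPKM in Wfs1KO mice, of which 1 was above the lowest WT mouse.

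Fbp1, a gluconeogenic phosphatase, had steps of -0.78 ± 0.53 and -1.28 ± 0.53 and a slope of -1.03 ± 0.26, with 10.25 to 17.55 RPKM in WT, 4.43 to 9.68 RPKM in Wfs1HZ and 1.88, 2.48, 1.29 and 13.29 RPKM in the Wfs1KO mice. Here Wfs1KO replicate 4 was alone within the WT range, and without it the slope was -1.35. Fam163a, a membrane protein, was at 6.85 ± 1.05, 5.54 ± 1.92 and 2.91 ± 1.06 RPKM and Ppp1r1a, a protein phosphatase 1 inhibitor of beta cells, at 19.1 ± 5.99, 17.6 ± 12.0 and 6.5 ± 1.64 RPKM (SD, n = 4).

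Gad1, which makes the transmitter GABA, and Spock1, an extracellular proteoglycan, had nearly their whole difference at the second copy. Gad1 was at 10.4, 3.13, 5.71 and 6.21 RPKM in WT mice, 5.29, 2.53, 10.18 and 6.08 RPKM in Wfs1HZ mice and 0.93, 0.8, 1.53 and 0.37 RPKM in Wfs1KO mice. Wfs1HZ mice lay in and around the WT range and every Wfs1KO mouse lay below both. The first step of Gad1 was -0.12 ± 0.49 and the second -2.58 ± 0.49, and its curvature of 1.23 ± 0.42 had an unadjusted p of 0.00986 by limma. Spock1 had steps of -0.27 ± 0.30 and -1.38 ± 0.30, with 14.08 to 22.24 RPKM in WT, 8.81 to 22.18 RPKM in Wfs1HZ and 4.45 to 7.36 RPKM in Wfs1KO mice. The rule for named transcripts also took the small nucleolar RNAs Snord82 and Snord52. Their RPKM stood for at most about 3.1 and 4.5 reads in any library, and their slopes moved with the pseudocount, from 1.13 to 4.26 for Snord82.

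**Figure D3:**
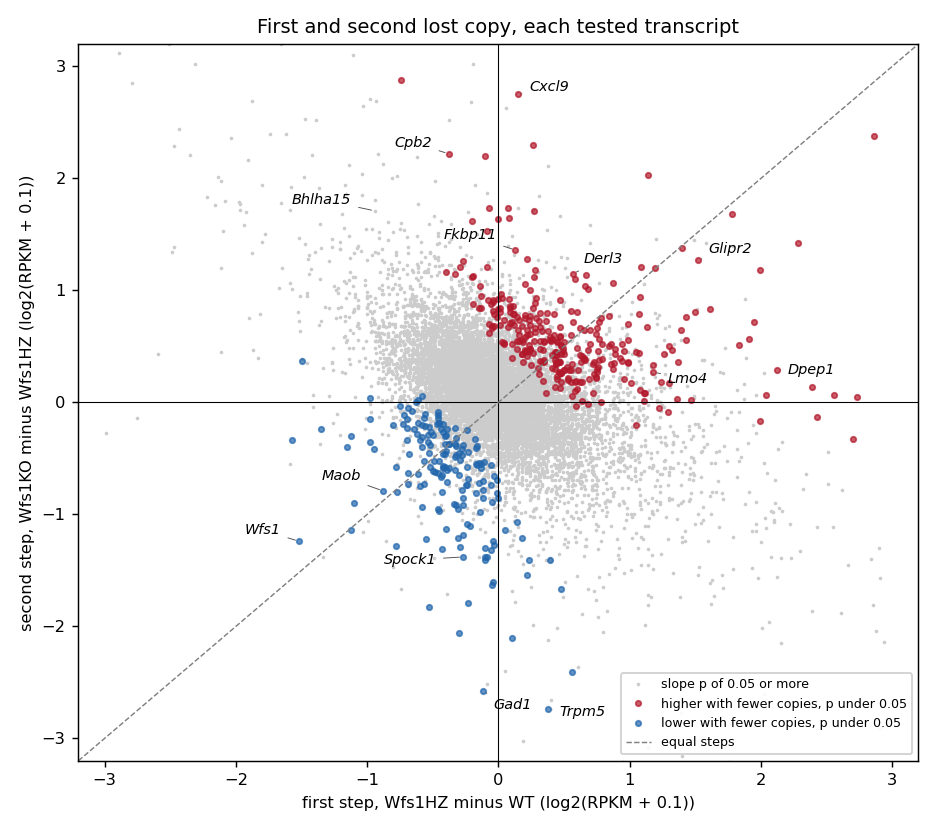
Each transcript's step from WT to Wfs1HZ (horizontal axis) against its step from Wfs1HZ to Wfs1KO (vertical axis), both as differences in mean log2(RPKM + 0.1), with transcripts of slope p under 0.05 in red (295 higher) and blue (169 lower), the rest in grey, and the dashed line where the steps are equal. Wfs1, Maob and Glipr2 lie near the dashed line and Gad1 and Trpm5 near the vertical axis, while 17 transcripts lie outside the axes.

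The position of the heterozygote was 0 at the WT mean and 1 at the Wfs1KO mean on the log2 scale. Of the 464 transcripts with a slope p under 0.05, 411 (88.6%) had the Wfs1HZ mean between the others, and the median position was 0.45, with quartiles of 0.21 and 0.65. The share over all tested transcripts was 32.7%. These values are a description only, because transcripts picked for a wide gap between WT and Wfs1KO leave more room between them, and a transcript with no real difference also has its heterozygotes midway on average. The position was below 0.25 in 136, from 0.25 to 0.75 in 259 and above 0.75 in 69 of the 464. Both steps were of at least 0.5 log2 in the same direction in 138 transcripts (1.03% of those tested), 98 with higher and 40 with lower levels at fewer copies, and 66 of the 138 also had a slope p under 0.05.

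Transcripts off the line at the heterozygote are those with the lowest curvature p. Trpm5, the cation channel that supports glucose-stimulated insulin secretion, was at 4.25, 2.57, 5.85 and 4.19 RPKM in WT mice, 4.42, 3.83, 11.12 and 4.16 RPKM in Wfs1HZ mice and 0.76, 0.55, 0.73 and 0.83 RPKM in Wfs1KO mice. A single intact copy went with WT levels or above, and the 4 Wfs1KO mice lay below all others. The curvature was 1.56 ± 0.35 (adjusted p = 1 by limma). Dpyd, which degrades pyrimidines, had a curvature of 1.07 ± 0.29 and Snora31, a small nucleolar RNA with about 1.2 to 32.4 reads, one of 1.5 ± 0.40. In the other direction Cpb2, a carboxypeptidase that restrains fibrinolysis, had 1.81 to 3.81 RPKM in WT, 1.23 to 2.39 RPKM in Wfs1HZ and 7.19 to 11.88 RPKM in Wfs1KO mice. Bhlha15, or Mist1, a transcription factor of acinar and other secretory cells, was at 5.91 ± 1.36, 3.08 ± 0.918 and 10.7 ± 4.18 RPKM (SD, n = 4). Gnat2, a transducin subunit, had means of 5.91, 3.23 and 9.8 RPKM. In these 3 genes the heterozygote mean was lowest, with curvatures of -1.30 ± 0.29, -1.33 ± 0.31 and -1.51 ± 0.38, and an adjusted p of 1 in each case by limma.

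The cholesterol synthesis and lipoprotein list had 11 of 11 slopes positive with a median of 0.34, and this held with median-of-ratios scaling (0.33) and quantile normalization (0.31). In 6 of the 11 the unadjusted limma p was under 0.05, against 2.21% of all transcripts in that direction, with the lowest adjusted p at 1. Among the 6 were the synthesis enzymes Lss and Hmgcs1, the sterol sensor Insig1, the transcription factor Srebf2 and the lipoprotein Apoe. The median step was 0.07 at the first copy and 0.70 at the second. The summed level was 166 to 301 RPKM in WT mice, 187 to 251 RPKM in Wfs1HZ mice and 478, 445, 274 and 259 RPKM in Wfs1KO mice. Wfs1KO replicates 3 and 4 thus lay within the WT range. Without Wfs1KO replicate 1 the median slope was 0.26, the lowest of the alternatives. Lss, lanosterol synthase, was at 14.08, 11, 12.69 and 13.77 RPKM in WT mice, 12.07, 17.87, 12.64 and 12.36 RPKM in Wfs1HZ mice and 32.87, 40.89, 18.71 and 17.58 RPKM in Wfs1KO mice. Heterozygotes thus lay at the WT level, with a position of 0.08, as they did for Hmgcs1 (0.10) and Insig1 (0.21). Curvature p was under 0.05 in 0 of the 11 genes by limma, so a difference between the steps was not shown. Apoe differed from the enzymes in its first step, 0.99 ± 0.51, and was at 9.14, 34.73, 11.01 and 3.32 RPKM in the Wfs1HZ mice, the highest being replicate 2. Its WT values were 4.8, 6.3, 6.54 and 3.72 RPKM and its Wfs1KO values 21.29, 12.53, 11.33 and 27.26 RPKM.

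**Figure D4:**
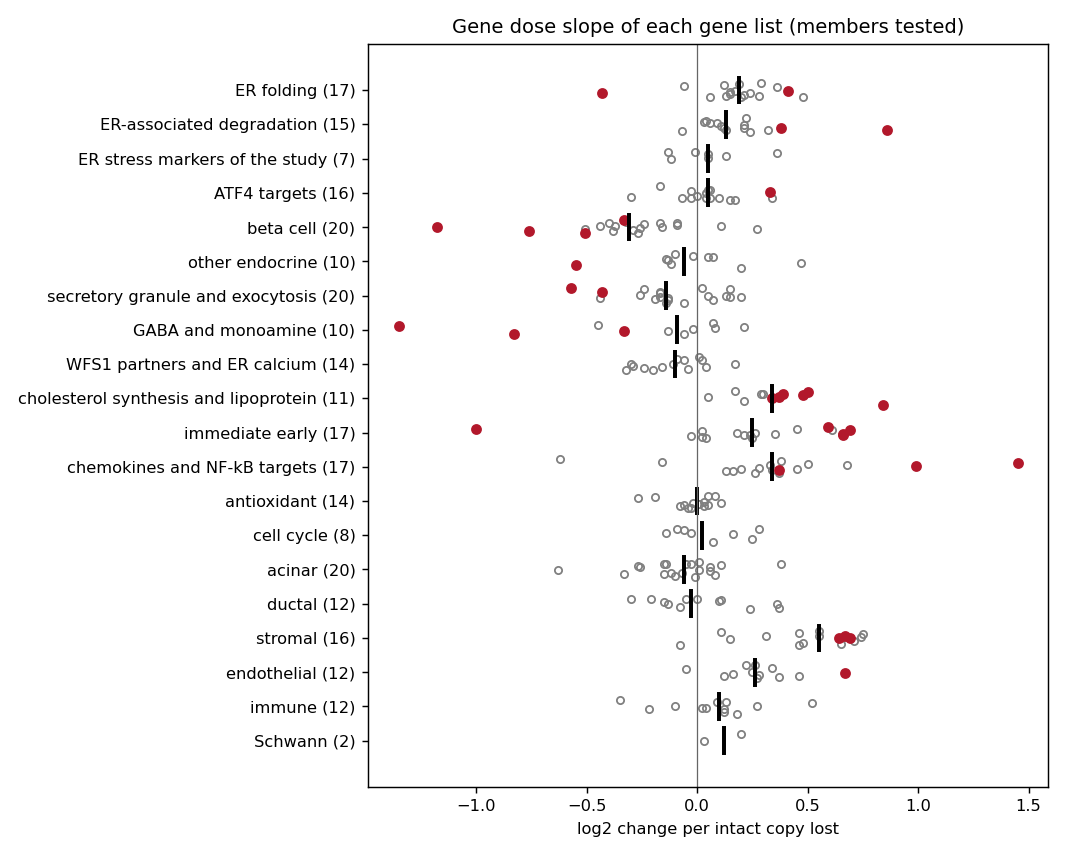
Slope of each tested member of 20 gene lists (horizontal axis, log2 change per intact copy lost, 1 circle per gene), with filled circles for an unadjusted slope p under 0.05 by limma, black bars at the list medians and the number of members tested beside each name. The stromal, cholesterol and chemokine medians, 0.55, 0.34 and 0.34, are on the right and the beta cell median, -0.31, is farthest to the left.

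Immediate early genes, which respond within minutes to stimuli, had 15 of 17 slopes positive with a median of 0.25, which was 0.11 with the stromal marker level as a covariate. Egr1, Egr2, Nr4a3 and Zfp36 were higher with fewer copies and Npas4, induced by calcium influx, was lower, each at an unadjusted p under 0.05 by limma. Over all transcripts 2.21% were higher and 1.27% lower at that p. For this list the median first step, 0.54, exceeded the second, 0.17. Curvature p was under 0.05 in 1 of the 17 genes by limma, beside 3.13% of all transcripts, so a difference between the steps was not shown. The summed level was 301 to 487 RPKM in WT mice and ran from 398 RPKM in Wfs1HZ replicate 4 to 933 RPKM in Wfs1HZ replicate 2. Egr1 was at 40.68, 97.77, 81.58 and 62.28 RPKM in WT mice, 158.75, 243.22, 105.71 and 65.81 RPKM in Wfs1HZ mice and 222.36, 133.31, 177.6 and 153.36 RPKM in Wfs1KO mice, and WT and Wfs1KO mice did not overlap. Zfp36, which destabilizes inflammatory mRNAs, had 36.76 to 49.61 RPKM in WT, 48.9 to 102.28 RPKM in Wfs1HZ and 43.34 to 176.53 RPKM in Wfs1KO mice. Npas4 was at 0.49 to 1.23 RPKM in Wfs1KO mice, below the 1.83 to 9.25 RPKM of WT mice, with Wfs1HZ mice from 1.52 to 13.39 RPKM.

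Chemokines and NF-kB targets had 15 of 17 slopes positive and a median of 0.34. In 3 genes, Cxcl9, Csf3 and Socs3, p was under 0.05 by limma, beside 2.21% of all transcripts in that direction. Wfs1KO replicate 4 stood apart in these genes, and without it 13 of the 17 had p under 0.05 and the median was 0.65, while 430 of all transcripts were higher. Without Wfs1KO replicate 3 the median was 0.18, and without Wfs1KO replicate 1 there were 2 genes higher and 1 lower, beside 149 and 155 of all transcripts. Cxcl9, an interferon-induced chemokine, was at 15.42, 7.44 and 10.46 RPKM in the other Wfs1KO mice and at 0.62 RPKM in replicate 4, with 0.12 to 2.29 RPKM in WT and 0.31 to 1.16 RPKM in Wfs1HZ mice. Csf3 was likewise at 36.21, 27.52 and 55.02 RPKM in those mice and at 12.18 RPKM in replicate 4. Socs3, a feedback inhibitor of cytokine signalling, was at 36.24, 38.82, 16.57 and 11.72 RPKM in Wfs1KO mice, 23.62, 21.88, 15.98 and 16.02 RPKM in Wfs1HZ mice and 10.95, 10.45, 17.48 and 17.4 RPKM in WT mice.

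In beta cell genes the slope was negative in 18 of 20 tested members with a median of -0.31, which was -0.32 with median-of-ratios scaling, -0.34 with quantile normalization and -0.17 with the stromal marker level as a covariate. In 4 of them the unadjusted p was under 0.05 by limma, beside 1.27% of all transcripts in that direction, and in 2 of them without Wfs1KO replicate 3. Besides Trpm5 these were Slc30a8, the zinc transporter of insulin granules (-0.76 ± 0.23), Slc2a2, the glucose transporter GLUT2 (-0.51 ± 0.21), and Kcnj11, the pore of the ATP-sensitive potassium channel (-0.33 ± 0.13). Slc30a8 was at 76.33, 69.06, 70.0 and 37.19 RPKM in WT mice, 48.34, 47.3, 133.95 and 33.78 RPKM in Wfs1HZ mice and 13.33, 17.31, 16.44 and 53.89 RPKM in Wfs1KO mice. The Wfs1HZ mean lay near WT for Slc30a8 (position 0.07) and Slc2a2 (-0.18) and nearer Wfs1KO for Kcnj11 (0.71). Wfs1HZ replicate 3 was far the highest, with 133.95 RPKM for Slc30a8 and 15.63 RPKM for Slc2a2. The other Wfs1HZ mice had 33.78 to 48.34 RPKM and 5.71 to 6.88 RPKM. First steps were -0.1 ± 0.44, 0.18 ± 0.39 and -0.47 ± 0.27 for the 3 genes, so a difference in position was not shown. Ins2 and Ins1, the insulin genes, had slopes of -0.51 ± 0.50 and -0.26 ± 0.53, and Nkx6-1 and Pdx1, beta cell transcription factors, 0.27 ± 0.24 and 0.11 ± 0.20. In whole islets fewer beta cells and less RNA per beta cell cannot be told apart. The summed level of the beta cell list was 32684 to 180463 RPKM in WT, 12861 to 138107 RPKM in Wfs1HZ and 22827 to 91886 RPKM in Wfs1KO mice, which overlap.

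Genes of other endocrine cells, 10 of which were tested, had a median slope of -0.06, and their summed level was 73395 to 200879 RPKM in WT, 66271 to 171078 RPKM in Wfs1HZ and 61743 to 248677 RPKM in Wfs1KO mice. Secretory granule and exocytosis genes had 2 of 20 lower at an unadjusted p under 0.05 by limma, Sytl4 (-0.57 ± 0.22), the granule protein granuphilin, and Stx1a (-0.43 ± 0.20), a syntaxin of the plasma membrane, beside 1.27% of all transcripts, with a list median of -0.14. Without WT replicate 1 or without Wfs1KO replicate 3 it was 0 of 20. For GABA and monoamine genes it was 3 of 10, Gad1, Maoa and Maob, beside the same 1.27%, with a median of -0.09. Gad1 and Maob were already calls of the study on these same libraries, so this count is not independent of them. The 14 tested WFS1 partners and ER calcium genes had 0 at that p and a median of -0.10, with a lowest slope of -0.32 for Atp2a3, an ER calcium pump. In the antioxidant list 0 of 14 and in the cell cycle list 0 of 8 passed it, with medians of 0 and 0.02. Over all transcripts 2.21% were higher and 1.27% lower, and at such shares a count of 0 is common in lists this short.

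The genes the study had called on these same libraries are not independent of this trend, and their counts are a description only. Trpm5, Apoe, Egr1, Zfp36, Npas4, Cxcl9, Csf3, Gad1 and Maob are such calls and also add to the list counts above. Of the study's 20 calls for Wfs1KO against WT, 19 were tested, 11 with a positive and 8 with a negative slope at p under 0.05 by limma. The heterozygote mean lay between the others in 16 of them, beside 88.6% of all 464 transcripts at that p. For Wfs1KO against Wfs1HZ, 12 calls were used here, which is not the study's whole list, and it lay between in 3 of them. Calls against WT favour a wide gap from WT to Wfs1KO, and calls against Wfs1HZ a heterozygote far from Wfs1KO. The counts therefore say little about the heterozygotes. Dpep1, a dipeptidase named by the study, was at 0.25, 0.69, 0.61 and 0.14 RPKM in WT mice, 3.1, 27.48, 1.81 and 0 RPKM in Wfs1HZ mice and 2.04, 1.73, 2.48 and 3.64 RPKM in Wfs1KO mice. WT and Wfs1KO mice did not overlap, but the slope, 1.21 ± 0.56, had an exact permutation p of 0.112.

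Markers of other cell types moved along the dose in part. In the stromal list 15 of 16 slopes were positive with a median of 0.55, and Dcn, Bgn and Thy1 had p under 0.05 by limma, beside 2.21% of all transcripts, and 0 genes did without WT replicate 1 or without Wfs1KO replicate 4. The summed stromal level was 73.6 to 221 RPKM in WT, 49.8 to 974 RPKM in Wfs1HZ and 177 to 501 RPKM in Wfs1KO mice. Dcn, the matrix proteoglycan decorin, was at 15.78, 22.14, 28.82 and 13.95 RPKM in WT mice, 33.77, 223.73, 23.69 and 8.65 RPKM in Wfs1HZ mice and 41.96, 49.75, 43.88 and 73.07 RPKM in Wfs1KO mice. WT and Wfs1KO mice were separate in Dcn, and the Wfs1HZ mice reached beyond both. With the stromal level as a covariate the slopes of Apoe, 0.84 ± 0.25, and Dpep1 went to 0.51 and 0.44, and that of Glipr2 stayed at 1.39. Endothelial genes had 1 of 12 with p under 0.05, beside the same 2.21%, which was Cdh5, an endothelial cadherin (0.67 ± 0.21), and a median of 0.26, or 0.11 with the stromal covariate, at 42.4 to 117 RPKM summed in WT, 40.2 to 191 in Wfs1HZ and 103 to 126 in Wfs1KO mice.

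Acinar genes, the digestive enzymes of exocrine tissue, had 0 of 20 slopes with p under 0.05 by limma and a median of -0.06. Their summed level was 62855 to 139268 RPKM in WT, 10930 to 356533 RPKM in Wfs1HZ and 11048 to 332925 RPKM in Wfs1KO mice, a wider range in the mutant genotypes. The ductal list had 0 of 12 (median -0.03), the immune list 0 of 12 (median 0.10) and the Schwann cell list 0 of 2. Over all transcripts 2.21% were higher and 1.27% lower at that p. At such shares a count of 0 is common in lists this short, so these counts do not set the lists apart. Covariate fits were made with the stromal and the acinar marker level only. Beyond them, the part of stromal, endothelial and acinar cells in the slopes of single genes was not tested.

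**Figure D5:**
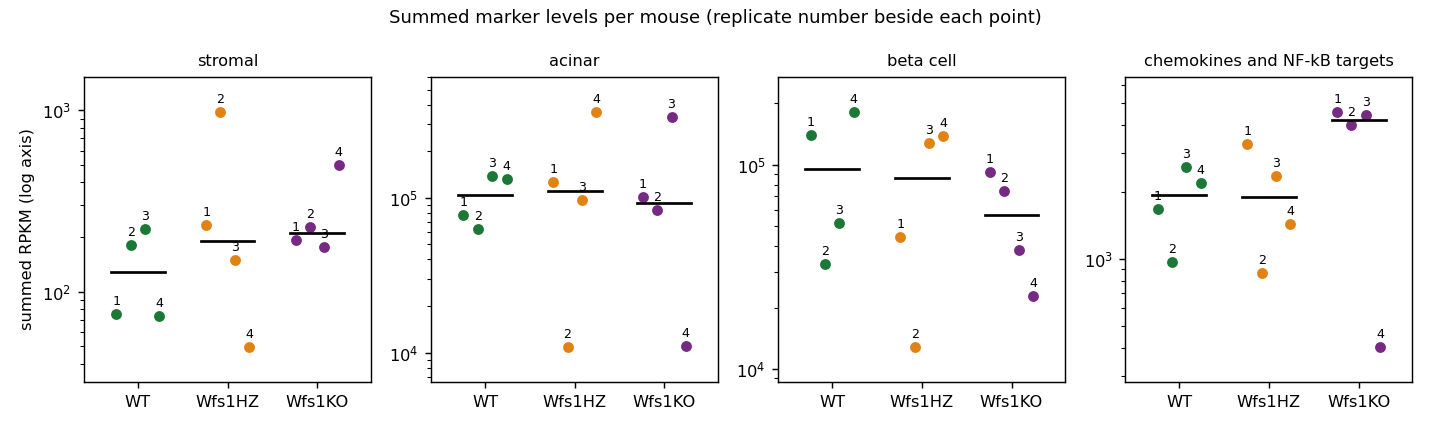
Summed RPKM per mouse (log axis, replicate number above each point, bars at genotype medians) of the stromal, acinar, beta cell and chemokine lists. Wfs1HZ replicate 2 is highest in the stromal list at 974 RPKM, and Wfs1KO replicate 4 is lowest in the chemokine list at 404 RPKM.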

How the data were processed

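Islet RNA of 12 mice was measured, and genotype and replicate number were taken from the sample labels. The authors made cDNA with the Ovation RNA-Seq System V2, sequenced it on a SOLiD 5500xl instrument and mapped the reads to mm10 with LifeScope. They deposited RPKM per transcript and mouse. The tool and annotation behind the RPKM are not given in the sources used here.

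RPKM were used as deposited, as log2(RPKM + 0.1), and values understate the change of low transcripts. The table has 24078 entries, 58 of which repeat a name and 969 of which are marked as copies of a locus, and all were kept. Reads shared between copies cannot be divided. Coordinates come from GENCODE M21 for 23520 entries (97.7%). Depth was estimated from the RPKM steps of genes under 200 nt, where 95.7% to 100.0% of low values per library were whole reads within 0.1 read. Read numbers are estimates and cover counting error only.

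Slope and curvature were fitted on all 12 libraries with limma 3.58.1 (R 4.3.3), with a variance trend. Adjusted p follows Benjamini and Hochberg over the 13357 transcripts whose mean reached 1 RPKM. FDR limits of 0.05 and 0.2 follow the study. Steps, with their standard errors, come from the fit with genotype as a factor. Exact permutation tests are two-sided and not adjusted over transcripts. Data were simulated from the mean and spread of each transcript, with normal noise drawn independently between transcripts. In these data 59% of 200 genes with a slope of 1 passed an FDR of 0.05 and 3% of those with a slope of 0.5, each in a run over 13357 transcripts. Variation that the transcripts of a library share was not simulated, so recovery in the real libraries may differ.

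Named transcripts were Wfs1, the 10 lowest slope p in each direction with the heterozygote between, the 3 lowest curvature p in each direction, 8 genes named by the study and up to 4 members of each of 22 lists with p under 0.05. Predicted genes without a name were counted only, and some items that the rule or a list holds are not reported here. Kdelr3, Creld2, Syvn1, Srebf2, Nr4a3, Atp2a3, Ins1, Ins2, Nkx6-1 and Pdx1 lie outside this rule and were picked with their values in view. The members and lists were chosen with earlier results of these data known. The labels do not tie mice to litters, so p-values measure the spread between these mice. Alternatives were other pseudocounts, filters, scalings and variance models, sample weights, a replicate block, marker covariates and each mouse left out. Promoters came from RefSeq (GRCm38.p6). Tables and figures were made in Python 3.11.15 with numpy 2.4.6, pandas 2.3.3 and matplotlib 3.10.9.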

Additional observations from a re-analysis of the deposited data

Results flagged for a closer look

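Among 138 sets of 4 mice of a genotype (24 transcripts and 22 list means), 7 had a mouse far from the other 3 by Dixon's criterion, where chance alone flags about 1 in 20. Glipr2 was at 0.6 RPKM in WT replicate 2 against 2.13 to 2.46 RPKM in the other WT mice. Prss23 was at 6.81 RPKM in Wfs1KO replicate 4 against 16.18 to 17.76 RPKM. Lmo4 was at 13.46 RPKM in Wfs1HZ replicate 2 against 5.41 to 6.31 RPKM. Fam163a was at 8.42 RPKM in Wfs1HZ replicate 1 against 4.42 to 4.78 RPKM. Trpm5 was at 11.12 RPKM in Wfs1HZ replicate 3 against 3.83 to 4.42 RPKM. The mean log2 level of chemokines and NF-kB targets was 2.85 in Wfs1KO replicate 4 against 5.88 to 6.08, and that of the stromal markers was 3.72 in the same mouse against 2.27 to 2.48.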

How the results depend on the processing

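Over 28 alternatives the slopes of 24 transcripts, among them Wfs1, Glipr2, Rara, Maob and Fbp1, kept their direction in all 665 fits. Transcripts picked for a low slope p in these same mice, such as Glipr2, Rara and Fbp1, tend to keep it. The kept direction is therefore no independent support. Fits that leave out Wfs1HZ mice, change only the filter or the variance trend or add the replicate block also leave the slope unchanged. In them Wfs1 stayed at -1.38 and Glipr2 at 1.39, so these fits could not turn a direction. Transcripts past an FDR of 0.05 by limma, 1 as reported, numbered 0 with median-of-ratios scaling, quantile normalization or no variance trend, 2 with the stromal covariate, 3 without the Wfs1HZ mice and 42 with sample weights, and 0 to 8 with each mouse left out. At an FDR of 0.2, 2 as reported, they numbered 0 with quantile normalization, 1 with median-of-ratios scaling, no variance trend or the replicate block, 12 with the acinar and 144 with the stromal covariate, 15 without the Wfs1HZ mice, 20 without Wfs1HZ replicates 2 and 4, 360 with sample weights and 1 to 26 with each mouse left out. At an unadjusted p under 0.05, 464 as reported, they numbered 706 with no filter, 273 at a mean of at least 5 RPKM, 824 with median-of-ratios scaling, 808 with quantile normalization, 723 without the Wfs1HZ mice, 800 with the acinar and 1591 with the stromal covariate, 1669 with sample weights, 868 without Wfs1HZ replicates 2 and 4 and 304 to 741 with each mouse left out, the lowest without Wfs1KO replicate 1 and the highest without Wfs1KO replicate 4. Fully ordered transcripts, 0 as reported, numbered 2 with median-of-ratios scaling, 17 without Wfs1HZ replicates 2 and 4 and 0 to 4 with each mouse left out. With fewer mice such order arises by chance more easily. Curvature calls at an FDR of 0.05 were 0 in every alternative that could give one. Fewer samples or transcripts enter the fits that leave some out, and for the others the cause was not tested. The adjusted p of Wfs1 was 0.119 with median-of-ratios scaling, 0.281 with quantile normalization and 0.115 with no variance trend. With sample weights 9 of 15 ER-associated degradation, 9 of 11 cholesterol and 8 of 17 immediate early genes were higher at an unadjusted p under 0.05. In that fit 1129 of all transcripts were higher. Leaving out Wfs1HZ replicates 2 and 4 and leaving out genes under 200 nt were chosen after seeing the data.

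Mice with the same replicate number had correlations of -0.28 to 0.34 over 12 pairs, and mice with different numbers and genotypes -0.3 to 0.36. The numbers thus gave no sign of pairing, but this could not exclude a shared litter or day of preparation. With the replicate block 1 transcript passed an FDR of 0.05 and 524 had an unadjusted p under 0.05 by limma. At the lowest depth, levels below 0.685 RPKM on 2 kb rest on fewer than 3 reads.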

Other observations

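Some transcripts with both steps of at least 0.5 log2 were not in the lists or among those named by rule, and the following were chosen after their values were seen. Fosl1, a subunit of the AP-1 transcription factor, had steps of 0.75 and 0.66 and a slope of 0.70 ± 0.18. Adm, the vasodilator peptide adrenomedullin, had steps of 0.66 and 1.04. S1pr1, a sphingosine 1-phosphate receptor of endothelial cells, had steps of 0.77 and 0.57. In the other direction Angptl7, a secreted angiopoietin-like protein, had steps of -1.10 and -0.90. None of these 4 passed an FDR of 0.2 by limma over all transcripts.

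Neurl4, a centriolar protein, had 45 of 48 pairs of mice in falling order, with 5.37, 5.76, 5.32 and 5.18 RPKM in WT mice, 4.33, 4.88, 4.14 and 3.05 RPKM in Wfs1HZ mice and 3.27, 3.46, 2.68 and 3.72 RPKM in Wfs1KO mice. Only Wfs1HZ replicate 4 lay out of order, and with median-of-ratios scaling Neurl4 and Dnm1l, a mitochondrial fission factor, were the 2 fully ordered transcripts.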
